A study of Mus musculus with 15 samples.

Results

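The 8 genes described here handle fatty acids and lipoproteins in endothelial cells, and they were measured in sorted endothelial cells of mouse liver. They are Cd36, Fabp4, Fabp5, Gpihbp1, Lpl, Lipg, Angptl4 and Pparg, chosen by name out of 21173 genes with a symbol on the array, and 9 probes carried their sequences. Each of the 15 samples was hybridised alone with Cy3-labelled cDNA to a 1-colour Agilent array. The study looked for a marker of endothelial stem cells in the liver. Liver endothelial cells had been sorted in 2 ways. The first sort gave the populations labelled EC-SP and EC-MP, from mice of 8 weeks. The second sort gave 3 subsets from adult liver, with no age in the labels: CD157+CD200+, CD157-CD200+ and CD157-CD200- cells. CD157 is an enzyme anchored on the cell surface and encoded by Bst1, and CD200 is a membrane glycoprotein encoded by Cd200. Every group had 3 independent samples. The labels give no treatment, allele, strain or sex for any group, do not spell out SP or MP, and do not say how many mice made up a sample.

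Triglycerides travel in the blood inside lipoproteins and are cut into fatty acids on the luminal face of capillaries. In heart, muscle and fat, lipoprotein lipase made by the parenchymal cells is picked up by GPIHBP1, an endothelial protein, which carries it across the cell and holds it in the lumen. The freed fatty acids enter endothelial cells partly through CD36 and are carried inside the cell by the fatty acid binding proteins FABP4 and FABP5. PPARG, a nuclear receptor that binds DNA together with a retinoid X receptor, switches on several of these genes in fat and endothelium, and ANGPTL4 restrains the lipase. Liver sinusoids differ from such capillaries: their endothelium is fenestrated, lets lipoproteins through to the hepatocytes and is rich in scavenger receptors.

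PPAR and retinoid X receptors bind pairs of the half-site AGGTCA, so the start of Cd36, a known target, is shown to let a reader see such a half-site beside a gene whose level differed widely among the groups. RefSeq promoter windows were matched for 2 of the 8 members, Cd36 and Pparg, with 4 windows in all. The 250 bases before the Cd36 start lie on the minus strand at chr5:17835897-17836146 (GRCm38.p6) and are printed 5′ to 3′, with the half-site in capitals, where it reads as its reverse complement.
Cd36: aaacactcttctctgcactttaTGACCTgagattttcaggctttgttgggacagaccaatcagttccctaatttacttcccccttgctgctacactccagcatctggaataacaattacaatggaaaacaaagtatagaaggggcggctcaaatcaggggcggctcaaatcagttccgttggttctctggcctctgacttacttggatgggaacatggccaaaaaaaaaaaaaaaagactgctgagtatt
The half-site AGGTCA, searched on both strands, begins 228 bases before this Cd36 start. It was also present in 2 of the 3 Pparg windows, 28 and 9 bases before their starts. Of all 32851 RefSeq windows of 250 bases, 14.0% held at least 1 half-site. The paired form AGGTCANAGGTCA, which contains the half-site, was in none of the 4 windows and in 0.0335% of all windows (11 of 32851). These matches describe letters in 1 annotated start each and are no measurement of binding.

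All levels below are log2 signals relative to the 75th percentile of the same array, so 0 is the level of that percentile, and a level is comparable between samples for 1 probe but not between probes. A difference was called where its Benjamini-Hochberg adjusted p from limma, taken over all features tested, was under 0.05. A probe not well above background is one that Agilent's software did not separate clearly from the local background. The 75th percentile of the arrays lay between 157 and 297 intensity units, 56.8 to 69.2% of probes were well above background, and no spot was saturated. The sorted antigens checked the labels: Bst1 was higher in CD157+CD200+ cells than in CD157-CD200- cells by 5.73 log2 and than in CD157-CD200+ cells by 4.98 log2, and the Cd200 signal of CD157+CD200+ cells was 320-fold or more, and that of CD157-CD200+ cells 154-fold or more, that of CD157-CD200- cells, where it did not rise clearly over background. All 12 general endothelial markers were well above background on all 15 arrays, Cdh5, the adhesion molecule of endothelial junctions, among them with group means of 4.56 to 5.48. Markers of other cells were present in every group, and markers of vessel types differed between the groups, so their summed signals, in units of the array's 75th percentile, are given beside the results they move with. In sorted bulk samples, fewer cells of a type and less RNA per cell cannot be told apart.

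**Figure D1:**
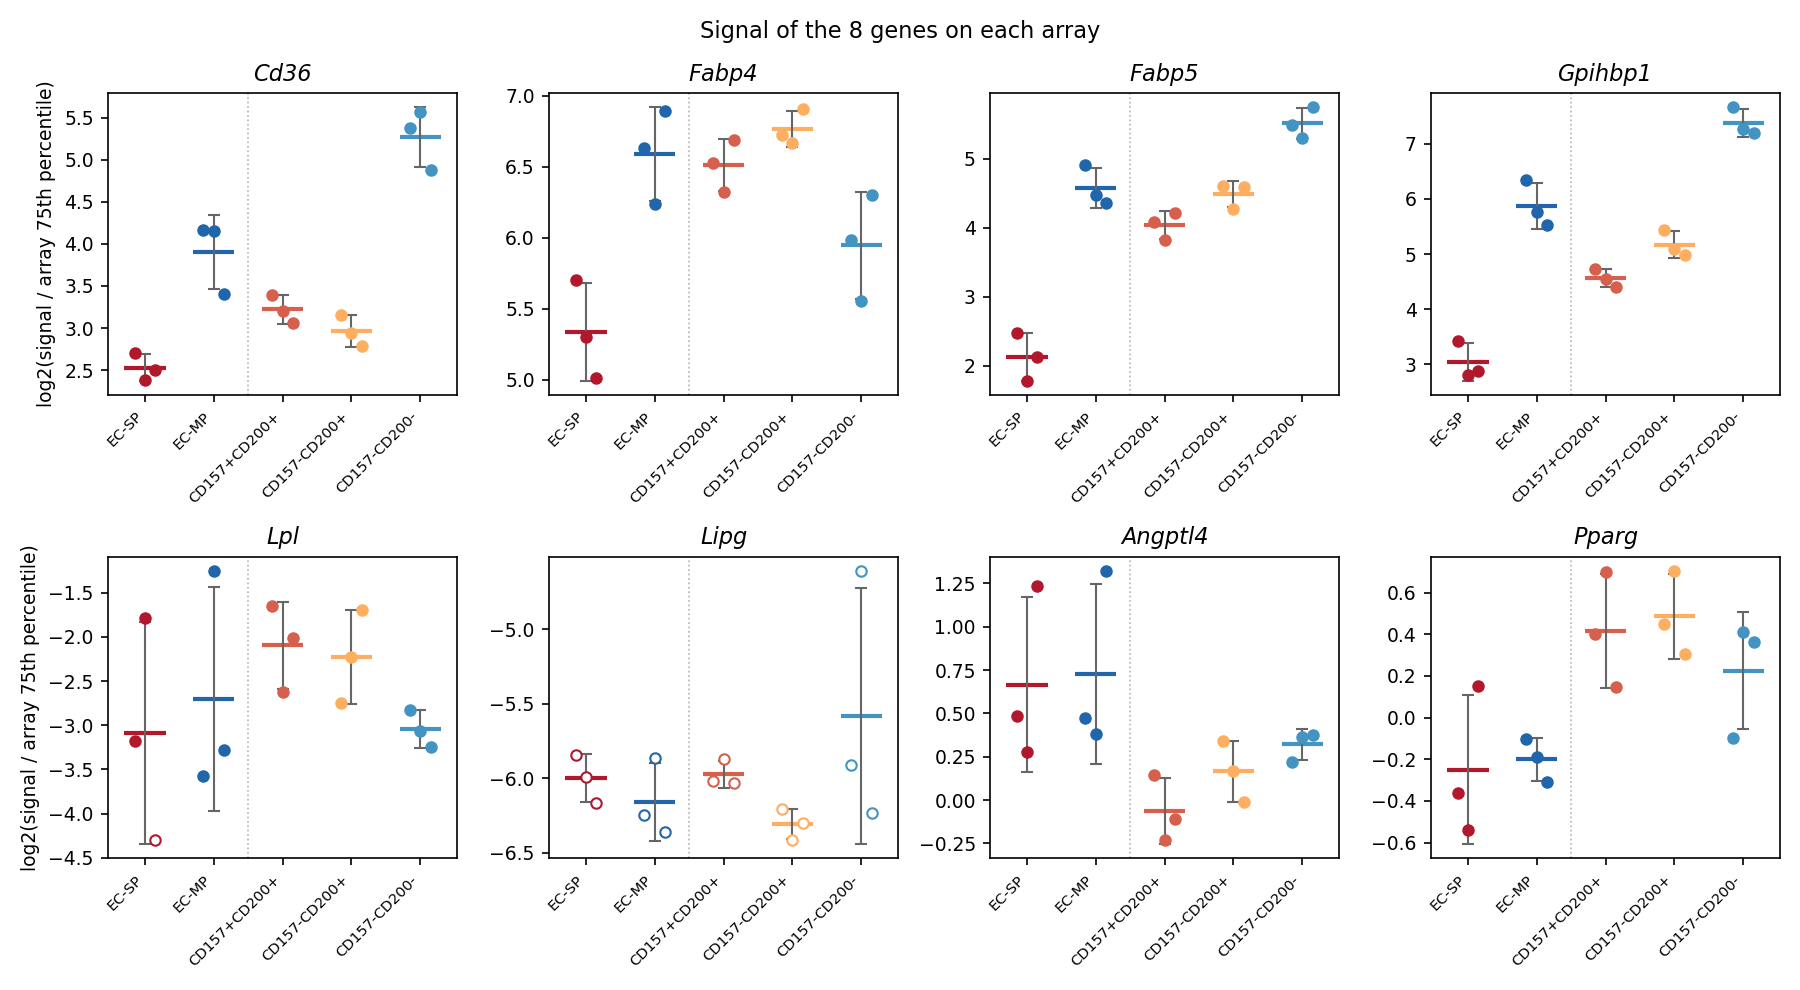
Level of each of the 8 genes on each array (log2 signal relative to the array's 75th percentile), by sorted group, with the bar at the mean of 3 arrays and the error bar as the SD; open circles mark arrays where the probe was not well above background, and the dotted line separates the 2 sorts. Cd36, Fabp5 and Gpihbp1 were lower in EC-SP than in EC-MP and lower in both CD200-positive subsets than in CD157-CD200- cells, while among the subsets Fabp4 had its highest mean in CD157-CD200+ cells.

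Cd36 encodes the scavenger receptor that takes up long-chain fatty acids and oxidised lipoproteins. Its level in EC-SP was 2.70, 2.39 and 2.50 in replicates 1, 2 and 3, and in EC-MP it was 4.16, 4.15 and 3.40. The EC-SP arrays all lay below the EC-MP arrays. In the second sort Cd36 was at 3.40, 3.20 and 3.06 in CD157+CD200+ cells, at 3.16, 2.94 and 2.79 in CD157-CD200+ cells and at 5.37, 5.56 and 4.88 in CD157-CD200- cells. The CD157-CD200- arrays stood above all 12 others, and the CD157+CD200+ and CD157-CD200+ arrays overlapped. From low to high, the group means were 2.53 ± 0.16 (SD, n = 3) in EC-SP, 2.96 ± 0.19 in CD157-CD200+, 3.22 ± 0.17 in CD157+CD200+, 3.91 ± 0.44 in EC-MP and 5.27 ± 0.35 in CD157-CD200- cells. Levels from different sorts were set side by side here and in the orders below without a test, because the sorts were hybridised on separate slides.

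Fabp4 encodes a small cytosolic carrier of fatty acids, known from fat cells and from capillary endothelium. EC-SP arrays gave 5.70, 5.30 and 5.01, and EC-MP arrays gave 6.63, 6.24 and 6.89. The arrays of these 2 groups did not overlap, with EC-SP the lower. CD157+CD200+ cells were at 6.53, 6.32 and 6.69, CD157-CD200+ cells at 6.72, 6.67 and 6.91, and CD157-CD200- cells at 5.99, 5.56 and 6.30. Among the subsets the CD157-CD200- arrays were the lowest, the reverse of Cd36, and the other 2 subsets overlapped narrowly. The means ran from 5.34 ± 0.35 in EC-SP through 5.95 ± 0.38 in CD157-CD200-, 6.51 ± 0.18 in CD157+CD200+ and 6.59 ± 0.33 in EC-MP to 6.77 ± 0.12 in CD157-CD200+ cells. The EC-MP mean differed from both its neighbours in this order by less than its own SD, and the CD157+CD200+ and CD157-CD200+ means differed by more than either SD, a difference that was not called.

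Fabp5 encodes the second endothelial carrier of this family. It was at 2.47, 1.78 and 2.12 in EC-SP and at 4.91, 4.47 and 4.36 in EC-MP. In CD157+CD200+ cells it was at 4.08, 3.81 and 4.21, in CD157-CD200+ cells at 4.60, 4.26 and 4.59, and in CD157-CD200- cells at 5.50, 5.29 and 5.75. No arrays of different groups within a sort overlapped, and on each slide the order of the subsets was the same, CD157+CD200+ lowest and CD157-CD200- highest. The means rose from 2.12 ± 0.35 in EC-SP to 4.04 ± 0.20 in CD157+CD200+, 4.49 ± 0.19 in CD157-CD200+, 4.58 ± 0.29 in EC-MP and 5.51 ± 0.23 in CD157-CD200- cells, where CD157-CD200+ and EC-MP lay within each other's spread.

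Gpihbp1, the endothelial anchor of lipoprotein lipase, had the widest range of the members. EC-SP arrays were at 3.43, 2.80 and 2.89 and EC-MP arrays at 6.34, 5.76 and 5.52. CD157+CD200+ cells were at 4.73, 4.54 and 4.41, CD157-CD200+ cells at 5.44, 5.10 and 4.98 and CD157-CD200- cells at 7.66, 7.27 and 7.19. The 3 subsets formed a ladder with no overlap. Means were 3.04 ± 0.34 in EC-SP, 4.56 ± 0.16 in CD157+CD200+, 5.17 ± 0.24 in CD157-CD200+, 5.87 ± 0.42 in EC-MP and 7.38 ± 0.25 in CD157-CD200- cells.

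Lpl, the lipase that frees fatty acids from triglyceride-rich lipoproteins, was dim. Its brighter probe was well above background on 14 of 15 arrays, with -3.18, -1.79 and -4.31 in EC-SP, the last of them not well above background, and -3.57, -1.25 and -3.28 in EC-MP. These 2 groups overlapped in part and were highest on the same replicate number. CD157+CD200+ cells were at -1.65, -2.62 and -2.01, CD157-CD200+ cells at -2.75, -2.23 and -1.70, and CD157-CD200- cells at -2.82, -3.06 and -3.24. All CD157-CD200- arrays were below the arrays of the other 2 subsets. The second Lpl probe was well above background on 2 of 15 arrays, both of replicate 3, at -3.59 in CD157+CD200+ and -3.21 in CD157-CD200+ cells. Lipg encodes endothelial lipase, which cuts phospholipids of high-density lipoproteins. Its only probe was not well above background on any of the 15 arrays, where it lay between -6.41 and -4.61, so it had a bound and no level, and it entered no test.

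Angptl4 encodes a secreted inhibitor of lipoprotein lipase. It was at 0.48, 0.28 and 1.24 in EC-SP and at 0.48, 0.38 and 1.32 in EC-MP, nearly the same on each slide and high on the third slide in both. CD157+CD200+ cells were at 0.14, -0.23 and -0.11, CD157-CD200+ cells at 0.34, 0.17 and -0.01, and CD157-CD200- cells at 0.22, 0.37 and 0.38. The CD157-CD200- arrays did not overlap the CD157+CD200+ arrays and were the higher. Pparg, the nuclear receptor, varied little between the groups. It was at -0.36, -0.54 and 0.15 in EC-SP and at -0.10, -0.19 and -0.31 in EC-MP. CD157+CD200+ cells had Pparg at 0.40, 0.70 and 0.15, CD157-CD200+ cells at 0.45, 0.70 and 0.30, and CD157-CD200- cells at -0.10, 0.41 and 0.36. All groups of a sort overlapped for Pparg.

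**Figure D2:**
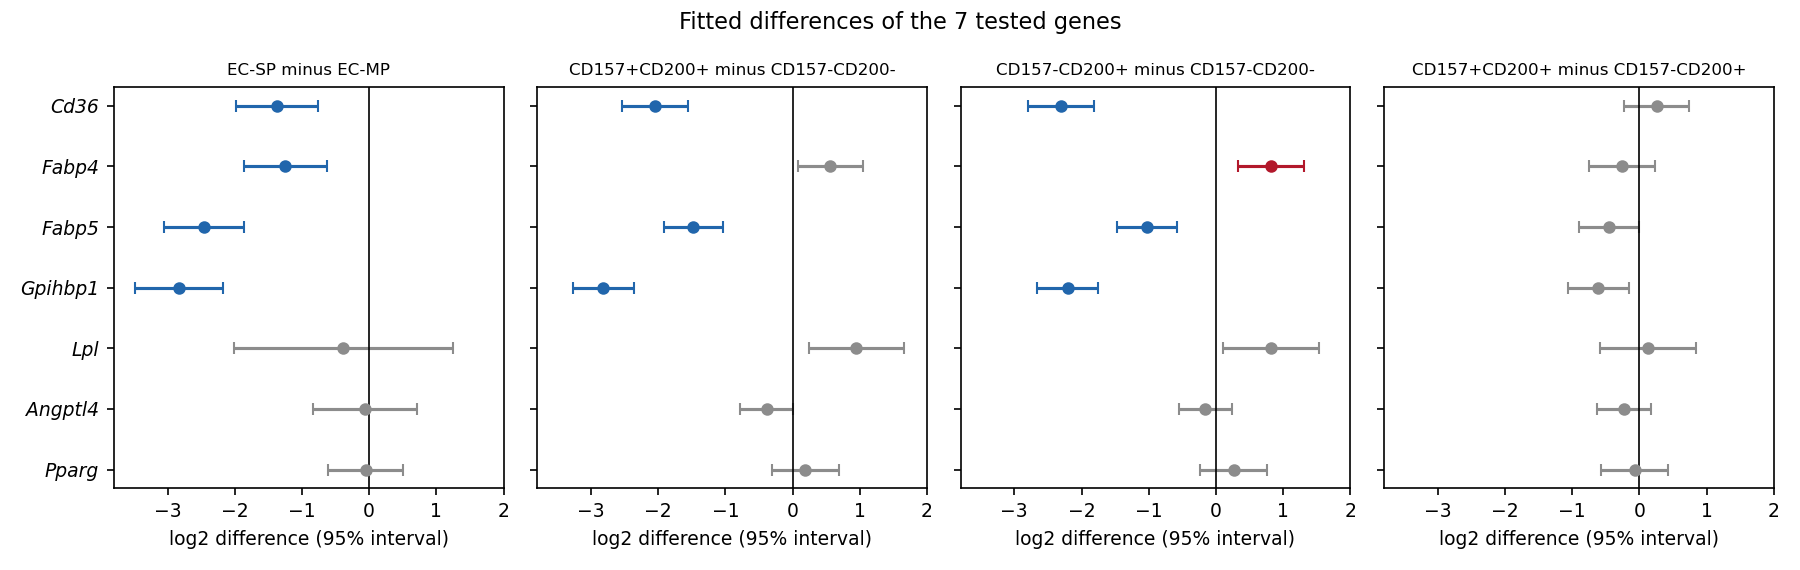
Fitted log2 difference of each of the 7 tested members in 4 comparisons, with 95% intervals (limma; first-named group minus second-named). Blue marks members called lower, red called higher and grey not called; Gpihbp1, Fabp5 and Cd36 were called lower in 3 of the 4 comparisons, and Fabp4 was lower in 1 and higher in 1.

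The first comparison asked how EC-SP cells differ from EC-MP cells. EC-SP cells had 4 members lower: Gpihbp1 by 7.13-fold, Fabp5 by 5.48-fold, Cd36 by 2.59-fold and Fabp4 by 2.38-fold. The surface receptor, both carriers and the lipase anchor thus all fell, while the lipase Lpl, its inhibitor Angptl4 and the regulator Pparg had differences that were not called. Of the 7 members tested, 4 were called lower and none higher, against 16.6% of all 23969 features called, 9.11% higher and 7.44% lower. The log2 difference was -2.83 ± 0.29 (SE) for Gpihbp1 (limma, 3 against 3 arrays, adjusted p = 0.00036) and -2.45 ± 0.26 for Fabp5 (adjusted p = 0.00047). It was -1.38 ± 0.27 for Cd36 (adjusted p = 0.0087) and -1.25 ± 0.27 for Fabp4 (adjusted p = 0.014). Within each slide the sign was the same, with Fabp4 differing by -0.93, -0.93 and -1.88 and Gpihbp1 by -2.91, -2.95 and -2.64. For the uncalled members the 95% intervals were -2.02 to 1.24 for Lpl, -0.84 to 0.71 for Angptl4 and -0.61 to 0.50 for Pparg, with adjusted p of 0.79, 0.94 and 0.93 from limma, so for Lpl a change of 2-fold in either direction was within the interval. The Fabp4 call was lost with no filter on dim probes (adjusted p = 0.054). Of the features called, 55.0% were higher, and 39.8% with the authors' deposited values.

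Other genes of these pathways moved both ways between EC-SP and EC-MP. Of 163 such genes in 9 lists, 145 were tested; 22 were called higher and 16 lower, and their median log2 difference was 0.014, against -0.0053 over all features. Among the other genes of fatty acid uptake and activation, 2 of 14 were called, both higher, led by Slc27a1, a fatty acid transporter, at 2.60 ± 0.50 log2 (adjusted p = 0.0083). On the lipase axis 4 of 13 were called, all higher: Pcsk5, a convertase that cuts lipases, stood at least 5.73-fold higher (adjusted p = 9.1e-05). Pcsk5 was well above background on 3 EC-SP and 0 EC-MP arrays, so it entered this test only through EC-SP cells. Of 14 lipoprotein receptor genes 6 were called, all higher, led by Lsr, a lipoprotein receptor of the liver, at 3.70 ± 0.26 log2 (adjusted p = 6.0e-05). Of 23 PPAR target genes that are no members, 1 was called higher and 6 lower, with a median of -0.06. Cyp4a10, a fatty acid hydroxylase, was lower by 3.34 ± 0.23 log2 units, with an adjusted p of 5.4e-05, and Plin2, which coats lipid droplets, fell by 1.61 ± 0.21 log2 (adjusted p = 0.0011). Storage genes had 3 higher and 6 lower of 25, Plin2 among them, and fatty acid oxidation 1 of 19, Cpt2, the inner carnitine transferase, at -1.48 ± 0.26. Of the regulators 2 of 19 were called, both higher. One was Tcf15 at 2.65 ± 0.33 log2 (adjusted p = 0.00096), a transcription factor known to drive fatty acid uptake genes in heart capillaries. Synthesis and desaturation gave 3 higher and 3 lower of 16, led by Elovl4, a fatty acid elongase, at 1.91 ± 0.23, and cholesterol handling 1 higher and 2 lower of 14, led by Ch25h, which makes 25-hydroxycholesterol, at 4.65 ± 0.28 (adjusted p = 3.1e-05). With the replicate number, which is the slide, as a block, 5 of 14 were called for cholesterol handling. Several counts fell on leaving out 1 array: uptake to 1 without any array but EC-SP replicate 2, storage from 9 to 5 without any array but EC-MP replicate 1, regulators to 1 without replicate 1 or 2 of either group, and the lipase axis to 2 without EC-MP replicate 2. The second called gene of uptake, Acsl4, and of the regulators, Foxo1, each lost its call without any 1 array (limma, adjusted p = 0.061 to 0.11 and 0.062 to 0.10).

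The fall of Cd36, Fabp4, Fabp5 and Gpihbp1 in EC-SP went together with that of the sinusoidal markers, such as Stab2 and Lyve1. All 11 of them on the array were called lower, and their summed signal was 17.73 to 20.39 in EC-SP and 292.1 to 521.5 in EC-MP. Cholangiocyte markers were called higher for 6 of 9, with sums of 12.7 to 16.29 in EC-SP and 5.104 to 5.506 in EC-MP, although Cftr was never well above background. Hepatocyte markers were called higher for 3 and lower for 2 of 8, with sums of 10.35 to 11.76 and 7.532 to 8.161. Of the Kupffer cell and macrophage markers 3 of 8 were lower, with sums of 27.02 to 31.28 and 26.03 to 35.9, and Timd4 was never well above background. Of 5 adipocyte markers, a cell type that makes Fabp4, Cd36 and Lpl, 1 was higher, with sums of 5.004 to 6.109 in EC-SP and 3.482 to 3.882 in EC-MP. Lep was never well above background. The part of these cells in the members' differences was not tested.

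The second sort asked how endothelial cells with CD157 and CD200 differ from cells with neither. CD157+CD200+ cells had Gpihbp1 lower by 7.05-fold, Cd36 lower by 4.14-fold and Fabp5 lower by 2.78-fold than CD157-CD200- cells. Fabp4 and Lpl had higher means in CD157+CD200+ cells and Angptl4 a lower one, each with no overlap of the arrays, but none of these was called. The share of all features without overlap was not counted, so a lack of overlap is only a description, here and in the other comparisons. Of the 7 members 3 were called lower and none higher, against 15.2% of all 23699 features, 8.09% higher and 7.11% lower. The log2 differences were -2.82 ± 0.20 for Gpihbp1 (limma, adjusted p = 1.1e-05), -2.05 ± 0.22 for Cd36 (adjusted p = 0.00015) and -1.48 ± 0.20 for Fabp5 (adjusted p = 0.00066). Fabp4 differed by 0.56 ± 0.22 (adjusted p = 0.13), with 0.54, 0.76 and 0.38 within the slides. With the replicate block Fabp4 was called (adjusted p = 0.017). Lpl differed by 0.95 ± 0.32 (adjusted p = 0.079), and it was called without replicate 2 of CD157+CD200+ (1.21, adjusted p = 0.040). Angptl4 differed by -0.39 ± 0.18 (adjusted p = 0.20), and Pparg by 0.19 ± 0.22 (adjusted p = 0.69, interval -0.30 to 0.68).

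Around these members, 147 other pathway genes were tested in CD157+CD200+ cells, 27 of them called higher and 19 lower, with a median log2 difference of -0.036 against 0.0053 over all features. Uptake genes gave 2 higher and 3 lower of 16, led by Slc27a3, a fatty acyl-CoA synthetase of the transporter family, at 3.22 ± 0.23 (adjusted p = 1.1e-05). The lipase axis gave 2 higher and 2 lower of 13, led by Sdc1, a heparan sulfate proteoglycan that binds lipoproteins, at 4.65 ± 0.20 (adjusted p = 4.8e-07). Lipoprotein receptors gave 5 higher and 2 lower of 15. Msr1, a scavenger receptor of macrophages and sinusoidal cells, was lower by 2.91 ± 0.17 log2 units, with an adjusted p of 3.3e-06. Of the regulators 5 were higher and 1 lower of 19: Tcf15 was higher by 3.38 ± 0.33, and Rxra, a partner of PPARG on DNA, had a difference of -0.79 ± 0.20 (adjusted p = 0.027), a call lost without any 1 of 4 of the 9 arrays (adjusted p = 0.0068 to 0.096 over all 9). PPAR targets that are no members gave 2 higher and 6 lower of 23, with a median of -0.25. Pdk4, a kinase that spares glucose when fatty acids are burned, differed by -2.74 ± 0.22 (adjusted p = 2.4e-05), and Plin2, also in the storage list with 1 higher and 3 lower of 26, by -1.87 ± 0.20. Oxidation genes gave 2 higher of 19, led by Acadvl, which starts very-long-chain oxidation, at 0.83 ± 0.18. Synthesis gave 7 higher and 1 lower of 16, led by Me1, a source of NADPH, at 1.98 ± 0.22, and cholesterol handling 2 higher and 3 lower of 13, led by Ch25h at 4.91 ± 0.39. With the block, the calls became 9 of 16 for uptake, 10 for regulators, 4 for oxidation, 11 for storage and 8 for cholesterol handling. Without 1 array, oxidation fell to 1 (any replicate of CD157+CD200+, or replicate 1 of CD157-CD200-), storage to 2 (replicate 1 or 2 of CD157+CD200+, or replicate 1 of CD157-CD200-) and cholesterol handling to 3 (replicate 1 of CD157-CD200-).

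Sinusoidal markers fell along with Gpihbp1, Cd36 and Fabp5 here too: 11 of 11 were called lower, with sums of 82.19 to 108.3 in CD157+CD200+ and 878.6 to 1177 in CD157-CD200- cells. Hepatocyte markers were lower for 6 of 9, with sums of 12.18 to 15.23 against 24.87 to 39.05. Among the uptake genes called lower, Fabp1 is the fatty acid binding protein of hepatocytes. Kupffer cell and macrophage markers were lower for 6 of 11, with sums of 28.09 to 31.51 against 40.85 to 54.92. Adipocyte markers were higher for 1 of 6, with sums of 3.035 to 3.644 against 1.698 to 2.732. Cholangiocyte markers had no calls in any comparison of the subsets, with sums of 6.832 to 9.095 and 5.017 to 6.616. Stellate cell and fibroblast markers gave 3 higher and 2 lower of 10, with sums of 23.27 to 32.9 against 8.88 to 9.698, and Hand2 was never well above background. Between EC-SP and EC-MP they gave 1 higher and 1 lower of 9, with sums of 11.67 to 17.52 and 6.57 to 7.157. Whether any of these cells contributed to the members' differences was not tested.

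**Figure D3:**
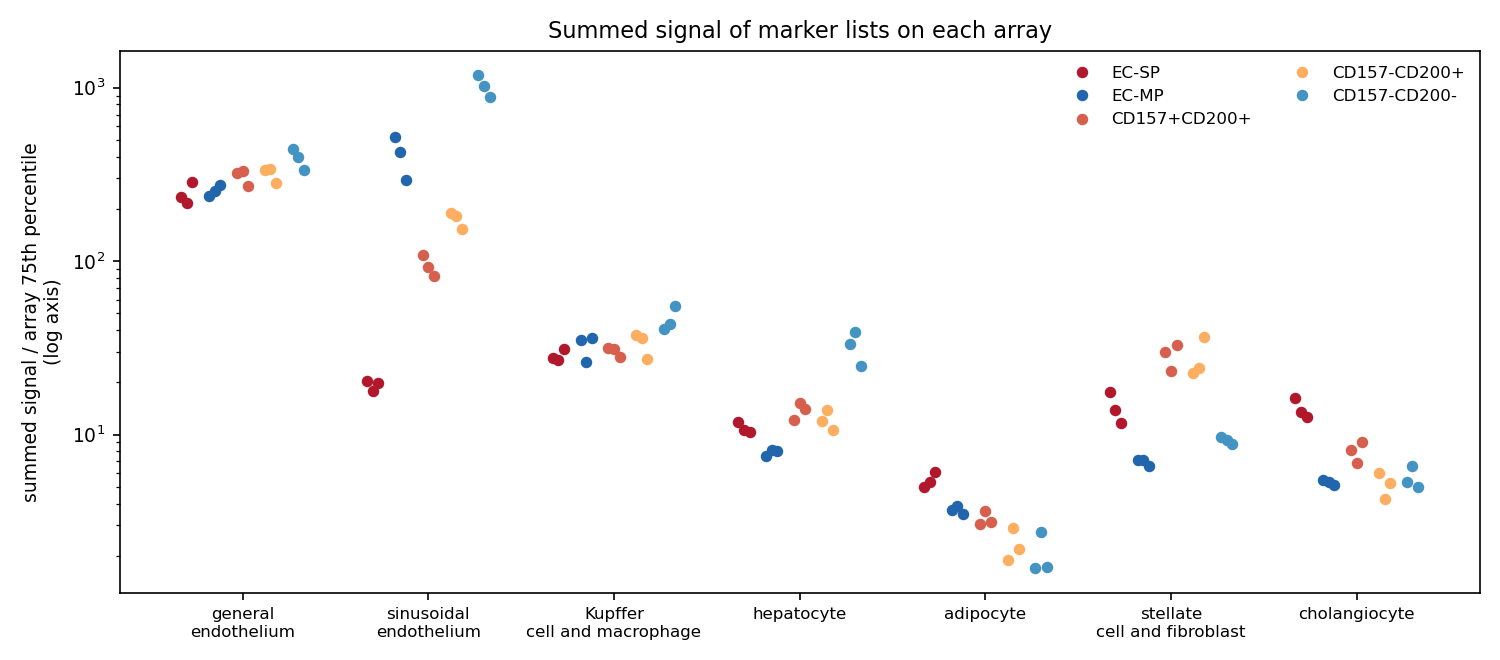
Summed signal of 7 marker lists on each array, in units of the array's 75th percentile on a log axis, by sorted group. The sinusoidal sum was lowest in EC-SP (17.73 to 20.39) and highest in CD157-CD200- cells (878.6 to 1177), the same end groups as for Gpihbp1 and Cd36.

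CD157-CD200+ cells, the middle subset, were set against CD157-CD200- cells to show what went with CD200 in the absence of CD157. Cd36 was lower in the CD200-positive cells by 4.95-fold, Gpihbp1 by 4.61-fold and Fabp5 by 2.04-fold, and Fabp4 was higher by 1.76-fold. Of the 7 members 3 were called lower and 1 higher, against 11.8% of all features, 6.31% higher and 5.54% lower. The log2 difference was -2.31 ± 0.22 for Cd36 (limma, adjusted p = 9.0e-05), -2.20 ± 0.20 for Gpihbp1 (adjusted p = 7.8e-05) and -1.03 ± 0.20 for Fabp5 (adjusted p = 0.0073). It was 0.82 ± 0.22 for Fabp4 (adjusted p = 0.038), with 0.74, 1.11 and 0.60 within the slides. Lpl differed by 0.82 ± 0.32 (adjusted p = 0.16), with no overlap of the arrays, Angptl4 by -0.16 ± 0.18 (adjusted p = 0.74) and Pparg by 0.26 ± 0.22 (adjusted p = 0.61). This comparison and the one of CD157+CD200+ cells share the CD157-CD200- arrays. The Fabp4 call was the least secure: it was lost with quantile normalization (adjusted p = 0.063), with no filter on dim probes (0.090) and without any 1 of 7 of the 9 arrays, all except replicate 3 of CD157+CD200+ and replicate 3 of CD157-CD200- (0.020 to 0.13 over all 9, at 0.62 to 1.00 log2).

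Of the other pathway genes, 147 were tested in CD157-CD200+ against CD157-CD200- cells, 20 of them called higher and 16 lower, with a median of -0.0085 log2 against 0.019 over all features. The genes that led most lists were the ones named for CD157+CD200+ cells: Slc27a3 at 3.62 ± 0.23, Sdc1 at 4.76 ± 0.20, Msr1 at -2.89 ± 0.17, Tcf15 at 3.38 ± 0.33, Pdk4 at -2.54 ± 0.22 and Plin2 at -1.62 ± 0.20, each with an adjusted p of 0.00046 or less from limma. Uptake gave 1 higher and 3 lower of 16, the lipase axis 2 and 2 of 13, lipoprotein receptors 2 and 2 of 15, and regulators 3 higher of 19. PPAR targets that are no members gave 2 higher and 7 lower of 23, with a median of -0.35. Oxidation gave 2 higher of 19, led by Cpt1c, a carnitine transferase form of neurons, at 1.03 ± 0.18 by its brighter probe and 3.95 by its other probe, both called, and storage 2 lower of 26. Synthesis gave 7 higher of 16 and none lower, with a median of 0.64, led by Scd2, a desaturase, at 1.81 ± 0.21. Cholesterol handling gave 2 higher and 2 lower of 13, led by Apoe, the apolipoprotein that macrophages and hepatocytes make, at -1.26 ± 0.15. With the block the calls became 6 for regulators, 4 for oxidation and 8 for storage. Without replicate 1 of CD157-CD200- the calls fell to 2 for uptake and to 2 for cholesterol handling, the latter also without replicate 1 or 2 of CD157-CD200+. Hepatocyte markers were lower for 8 of 9 (sums of 10.67 to 13.88 in CD157-CD200+), sinusoidal markers for 10 of 11 (152.6 to 188.9) and Kupffer cell and macrophage markers for 5 of 11 (27.3 to 37.56). Stellate cell and fibroblast markers gave 3 higher and 2 lower of 10 (22.73 to 36.43), and no adipocyte marker was called (1.897 to 2.887). Their part was not tested.

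**Figure D4:**
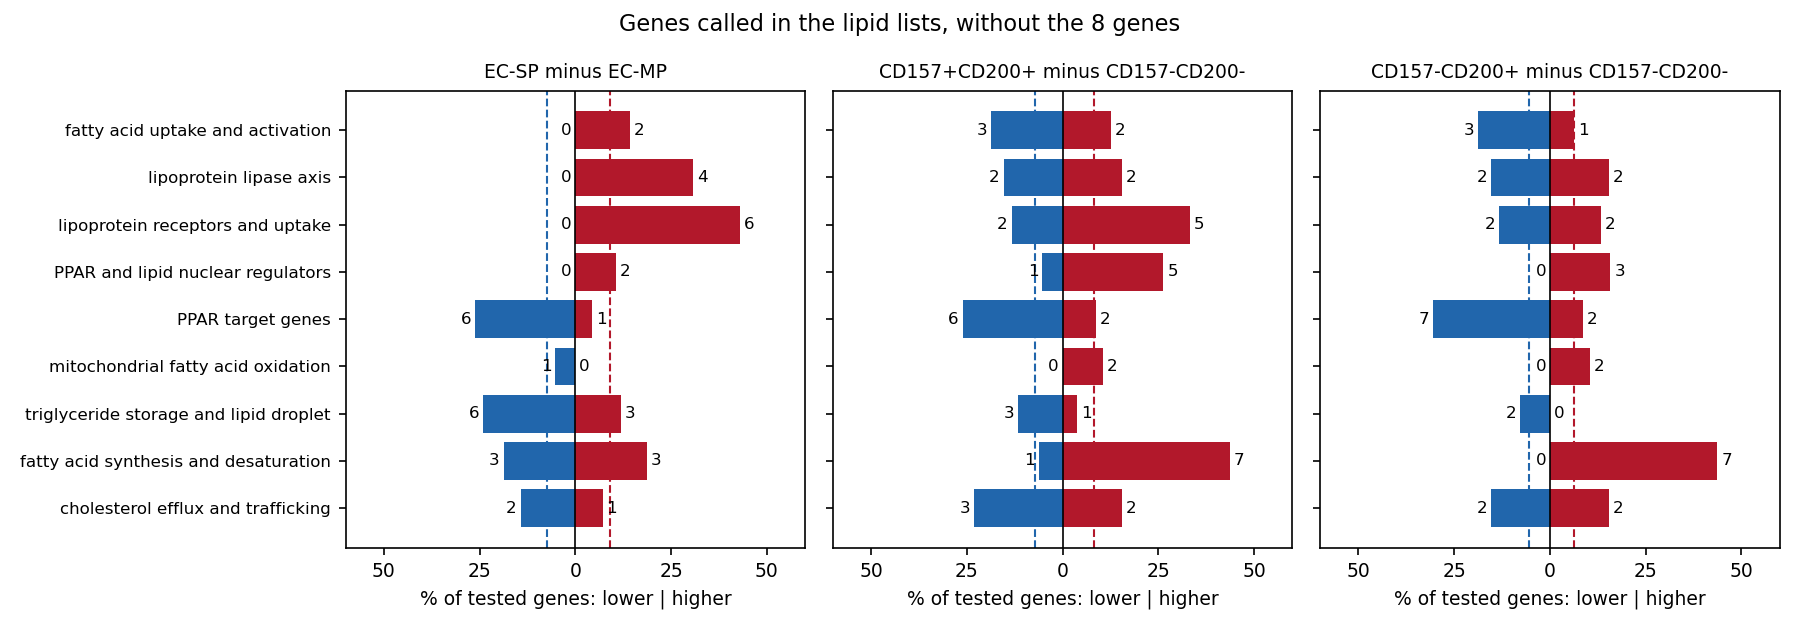
Percent of the tested genes of each pathway list, members left out, called lower (blue, to the left) or higher (red, to the right) in 3 comparisons, with the number of genes at each bar and dashed lines at the share of all features called. PPAR target genes were called lower more often than higher in all 3 (6, 6 and 7 genes lower against 1, 2 and 2 higher), and no lipoprotein receptor gene was called lower between EC-SP and EC-MP.

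CD157+CD200+ and CD157-CD200+ cells were compared to show what went with CD157 among CD200-positive cells. Cd200 itself was also called higher in CD157+CD200+ cells, so the signals of both sorted antigens differed. Without 1 array the Cd200 difference was 1.02 to 1.11 log2, and its call was kept in 5 of 9 cases (limma, adjusted p = 0.019 to 0.077). Gpihbp1 was lower in CD157+CD200+ cells by 0.61 ± 0.20 log2 and Fabp5 by 0.45 ± 0.20, both with no overlap of the arrays, and neither was called (limma, adjusted p = 0.34 and 0.57). No member was called, against 1.05% of all features, 0.802% higher and 0.245% lower. Their unadjusted p from limma was 0.014 for Gpihbp1 and 0.047 for Fabp5. The share of all features with an unadjusted p this low was not counted. Gpihbp1 differed by -0.71, -0.56 and -0.58 within the slides, and with the replicate block it was called (adjusted p = 0.025). The 95% intervals were -0.23 to 0.75 for Cd36, -0.74 to 0.23 for Fabp4, -0.58 to 0.85 for Lpl, -0.63 to 0.17 for Angptl4 and -0.56 to 0.42 for Pparg. Of the 147 other pathway genes 4 were called higher and none lower, with a median of -0.030 log2 against -0.0084 over all features. They were Scarb1, the receptor for high-density lipoproteins, at 1.44 ± 0.22 (adjusted p = 0.014), Ppargc1a, a coactivator of PPARG, at 1.60 ± 0.31 (0.049), Mogat2, an acyltransferase of triglyceride synthesis, at least 2.24-fold (0.025), and Ch25h at 3.10 ± 0.39 (0.0065). The call of Ch25h was kept without any 1 array (0.0086 to 0.039), and those of Scarb1, Mogat2 and Ppargc1a were lost in 5, 5 and 8 of the 9 cases. Ppargc1a and Mogat2 were dim, well above background on 1 and 0 of 3 CD157-CD200+ arrays. Ppargc1a entered the test only through CD157+CD200+ cells. Both calls were also lost after normexp, at 0.44 log2 for Ppargc1a and 0.34 for Mogat2 (limma, adjusted p = 0.14 and 0.29). With the block, calls became 2 for receptors, 1 for PPAR targets, 2 for storage and 3 for synthesis. Of all markers 3 were called, all sinusoidal and lower.

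One test over the 3 subsets together asked whether a gene differed anywhere among them. It called Cd36 (limma F test, adjusted p = 0.00011), Fabp5 (adjusted p = 0.0016) and Gpihbp1 (adjusted p = 2.5e-05), 3 of 7 members against 13.9% of all features. Fabp4 (adjusted p = 0.074), Lpl (0.14), Angptl4 (0.40) and Pparg (0.80) were not called. This test was added after the data had been seen.

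The 2 sorts were also set against each other, by the difference between the EC-SP minus EC-MP difference and the CD157+CD200+ minus CD157-CD200- difference, to ask whether the members moved alike. These contrasts share no arrays. Gpihbp1 moved by nearly the same amount in both, -2.83 and -2.82 log2, and the 95% interval of the difference was -0.77 to 0.74. Fabp4 was 1.25 log2 lower in EC-SP, and its difference in the second sort was 0.56 log2, which was not called (adjusted p = 0.13). The contrasts differed by -1.81 ± 0.35 for Fabp4 (limma, adjusted p = 0.0071). Fabp4 was the 1 member of 7 called, lower, against 5.05% of 25060 features, 2.08% higher and 2.97% lower. Fabp5 differed by -0.98 ± 0.32 (adjusted p = 0.11). It was called with the block (adjusted p = 0.0072) and with the authors' deposited values (-1.13, adjusted p = 0.038). Cd36 differed by 0.67 ± 0.34 (adjusted p = 0.36), Lpl by -1.34 ± 0.87 (0.53), Angptl4 by 0.32 ± 0.39 (0.84) and Pparg by -0.24 ± 0.32 (0.87). Of the features called, 41.1% were higher, but 29.0% with the authors' deposited values and 54.8% after normexp. The sorts also differed in scan, software version and slides, and these cannot be told apart from the sort. The groups subtracted in the 2 contrasts had sinusoidal sums of 292.1 to 521.5 (EC-MP) and 878.6 to 1177 (CD157-CD200- cells). These sums come from different sorts and were set side by side without a test.

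**Figure D5:**
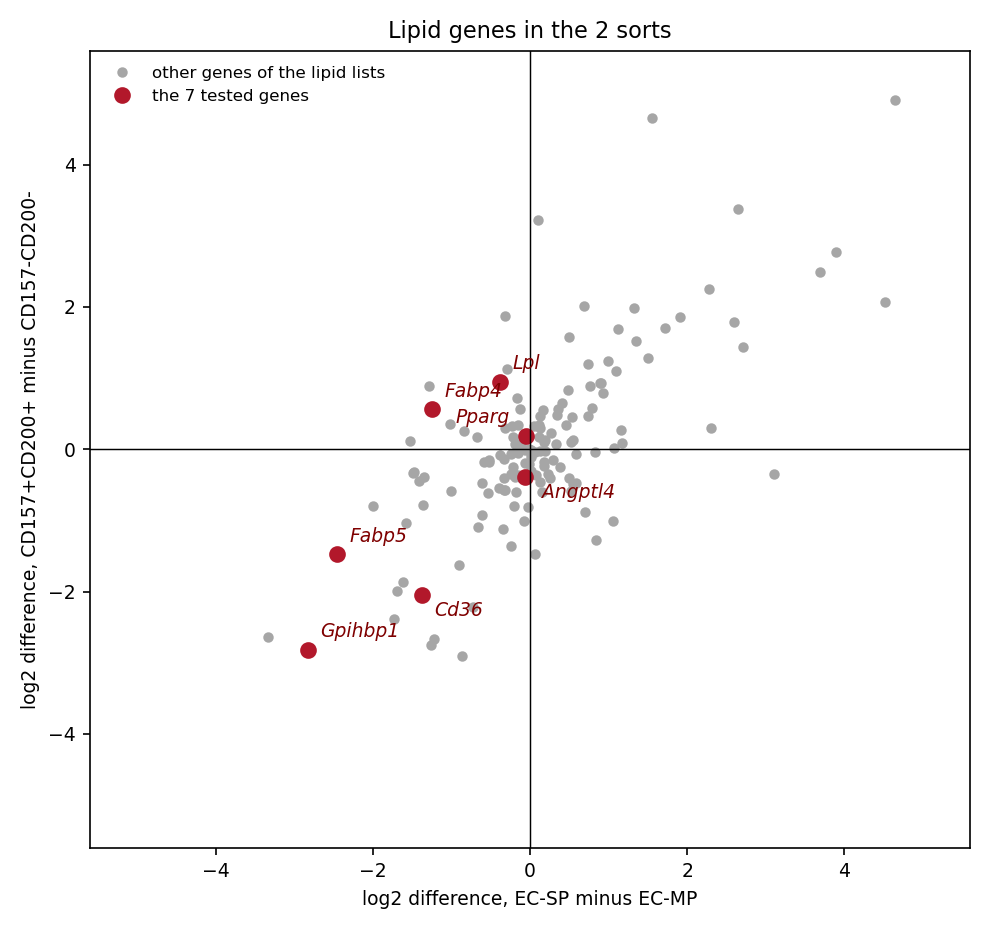
Log2 difference EC-SP minus EC-MP (horizontal) against CD157+CD200+ minus CD157-CD200- (vertical) for 7 members (red) and 141 other pathway genes (grey). Gpihbp1, Fabp5 and Cd36 lie in the lower left, and Fabp4 is at -1.25, which was called, and 0.56, which was not.

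The relatives of Pparg were checked in the same way. Ppara and Ppard, the other PPAR receptors, were not called in any of the 4 pairwise comparisons, and neither was Pparg. Ppard differed by -0.79 ± 0.32 between CD157+CD200+ and CD157-CD200- cells (adjusted p = 0.14) and by -0.75 ± 0.32 between CD157-CD200+ and CD157-CD200- cells (adjusted p = 0.20). With the block these Ppard differences were called (adjusted p = 0.0096 and 0.015). Rxra differed by -1.37 ± 0.46 between EC-SP and EC-MP (adjusted p = 0.074). That difference was called in 5 of 14 other settings, among them without EC-SP replicate 3 (-1.86, adjusted p = 0.016), and without EC-SP replicate 1 it was -0.84 (adjusted p = 0.16).

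The members varied together in part. Over the 15 arrays, with the mean of each sort removed, Fabp5 and Gpihbp1 had a correlation of 0.95, Cd36 and Gpihbp1 0.92, and Cd36 and Fabp5 0.79. Fabp4 went apart, with 0.46 to Fabp5, 0.21 to Gpihbp1 and -0.13 to Cd36, and Lpl and Angptl4 ran against each other at -0.64. Each member was also set against the 13626 genes that were tested in both sorts. A tested gene need not be well above background on every array, so values near background could enter these correlations. Lpl itself was well above background on 14 of 15 arrays. By this measure the genes most like Gpihbp1 were Man2b1, Zmynd15 and Sgpp1 (all 0.99). Those most like Fabp5 were Ehd3, Tmem9b and Entpd5 (all 0.98), and those most like Cd36 were Nqo2, Mpp1 and Gatm (0.98, 0.98 and 0.97). For Fabp4 they were Vstm5 (0.96), Ndufa8 and Ube2e2 (both 0.93), and for Angptl4 Smarcc1 (0.90), Hs2st1 (0.89) and Psme3 (0.88). Pcmtd1, Tbc1d12 and Iqcd (0.83 to 0.81) were nearest to Lpl, and Trim45, Vars and Map3k19 (0.82 to 0.77) to Pparg. These values describe arrays that share slides and groups, and no test was made of them.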

How the data were processed

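Total RNA of 15 sorted liver endothelial samples was extracted with Qiagen's RNAeasy mini kit, amplified with NuGEN's Ovation Pico system and labelled with Cy3, per the labels' protocols. The deposited scanner files hold 1-colour spot intensities, background-subtracted by Agilent Feature Extraction 10.10.1.1 (EC-SP and EC-MP) or 11.5.1.1 (the subsets), per the file headers. The array design is annotated on mm9. The authors' series table holds the same intensities times 1 constant per array, on a linear scale and not centred, by a constant whose basis the labels and headers do not state. Levels are log2 processed signal minus the array's log2 75th percentile, with control spots and outlier flags left out and spots of 1 probe averaged. A gene took its brightest probe, and unnamed probes with 1 systematic name were grouped. Features well above background on all 3 arrays of a group were fitted with limma 3.58.1 (R 4.3.3) on 6, 9 or, for the difference between the sorts, 15 arrays, two-sided, with Benjamini-Hochberg adjustment over all features. The code was tested on simulated data.

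The members, the 9 pathway lists and 11 marker lists were chosen with earlier results of these data known. Of each pathway list the text names the gene with the lowest adjusted p among up to 3 that the rule allows per comparison, and all called genes where 4 or fewer were called in all lists. Ppara, Ppard, Rxra, Bst1, Cd200 and Cdh5 were named by rule, and Fabp1, Stab2, Lyve1 and the markers at background were added after the values were seen. A gene that the rule would also name is not reported here by itself, and it stays in the counts of its list. "At least" folds set a group's mean against the lowest signal well above background in the other.

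Equal replicate numbers shared a slide and a scan within each sort, per the file headers. Deviations of same-numbered samples from their group means correlated at 0.27 to 0.33 over 3 pairs and 0.27 to 0.63 over 9 pairs. A shared slide and a shared origin of these samples cannot be told apart here. The main fits did not use the numbers, and the replicate block did. Alternatives were normexp background correction, quantile normalization, the authors' table, other filters and probe rules, the replicate block, 1 fit over all arrays, and leaving out each array. The mean signal that normexp was meant to use is not a column here, so the median signal was used with an offset of 50.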

Additional observations from a re-analysis of the deposited data

Results flagged for a closer look

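For 9 of 43 members and named pathway genes tested in both contrasts, the EC-SP minus EC-MP difference and the CD157+CD200+ minus CD157-CD200- difference were themselves different by limma's interaction test over 15 arrays, against 5.05% of all features. The pathway genes had been named for a low adjusted p in 1 of these 2 contrasts, so their count is a description. Fabp4 was the 1 member among them, at -1.81 log2 (adjusted p = 0.0071), with -1.25 in the first sort, which was called, and 0.56 in the second, which was not (adjusted p = 0.13). Slc27a3 stood at -3.12 (adjusted p = 0.00020), with 0.10 and 3.22. Sdc1 stood at -3.10 (adjusted p = 0.00074), with 1.55 and 4.65, a rise in both sorts. Mylip, which marks lipoprotein receptors for degradation, stood at 1.53 (adjusted p = 0.012), with 0.06 and -1.47, and Nr1h3, the oxysterol receptor LXR alpha, at -2.19 (adjusted p = 0.015), with -0.32 and 1.87. These 5 kept the call without any 1 array. The other 4 did not: Sdc4 at 1.06 (0.027, up to 0.069), Msr1 at 2.05 (0.037, up to 0.084), Fads1 at -0.97 (0.038, up to 0.093) and Scd2 at -1.09 (0.048, up to 0.12), with adjusted p from limma over all arrays and the highest without 1 array. Slides, scans and software version differed between the sorts and cannot be told apart from them.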

How the results depend on the processing

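Of 607 recomputed member values, 574 kept direction and side of the threshold, 10 lost a call, all for Fabp4, 5 gained one, and 18 turned sign, all of the latter uncalled. Cd36, Fabp5 and Gpihbp1 kept every pairwise call made. Feature counts that moved by over 1.5 times were 2279 without a filter for EC-SP and EC-MP (main 3968). For CD157+CD200+ against CD157-CD200+ (main 248) the count was 156 with probes well above background on every array. On leaving out 1 array it was 104 to 261, and 5 of these 9 counts did not move by over 1.5 times. With the replicate block, more features were called: 6937 against 3601 for CD157+CD200+ and 5282 against 2807 for CD157-CD200+ over CD157-CD200- cells, 726 against 248 between these 2, 6349 against 3305 for any difference and 3192 against 1265 between the sorts. Members called with the block were 1 (main 0) for CD157+CD200+ against CD157-CD200+ and 2 (main 1) between the sorts, also 2 with the authors' table. Beyond the calls given above, the block moved those of Pecam1 for EC-SP (adjusted p = 0.077 to 0.025), of Scd1 (0.012) between the CD200-positive subsets and of Bst1 for CD157-CD200+ over CD157-CD200- cells (0.092 to 0.028), and no other call of a member or gene named in the text.

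Leaving out 1 array turned the sign of uncalled differences: between EC-SP and EC-MP Lpl ran from -1.04 to 0.34, Angptl4 from -0.35 to 0.24, Pparg from -0.25 to 0.094 and Ppara from -0.083 to 0.095. Between the CD200-positive subsets Lpl ran from -0.13 to 0.40, Pparg from -0.21 to 0.064 and Ppard from -0.35 to 0.23, and for CD157-CD200+ over CD157-CD200- Ppara ran from -0.13 to 0.13. Gpihbp1 between the sorts ran from -0.21 to 0.22, and was 0.044 after normexp. Ppara was -0.15 (authors' table) and -0.24 (mean of probes) for EC-SP, and -0.031 after quantile normalization for CD157-CD200+. The cause was not tested. Of 83 calls of named genes, 66 held in all settings run and none reversed. The authors' table moved the median of all features to -0.17 for EC-SP and -0.15 between the sorts. Lpl could not be tested for EC-SP under the every-array filter, and a single fit over 15 arrays was not run for the F test. Low signal limits Lpl and Lipg, and 3 arrays a group limit all.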

Other observations

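Large-vessel markers were called higher more often than lower where Cd36, Fabp5 and Gpihbp1 were called lower. These markers, such as Vwf and Fbln5, were called higher for 5 and lower for 1 of 12 in EC-SP, for 9 and 1 of 12 in CD157+CD200+ and for 9 and 0 of 12 in CD157-CD200+ over CD157-CD200- cells. Their summed signal was 347.5 to 436.3 in EC-SP, 210.5 to 360.1 in EC-MP, 655.9 to 697.6 in CD157+CD200+, 657.2 to 738.2 in CD157-CD200+ and 86.08 to 115 in CD157-CD200- cells. The continuous capillary list holds Gpihbp1, Cd36 and Fabp4 themselves. With these members in it, its summed signal was 337.9 to 362.6 in EC-SP and 433.2 to 474.3 in EC-MP. In the second sort this sum was 341.3 to 358.6 in CD157+CD200+, 368.6 to 396.2 in CD157-CD200+ and 511 to 572.1 in CD157-CD200- cells. Of the other genes of the list, 2 were called higher and 0 lower of 8 in EC-SP, 4 and 1 of 9 in CD157+CD200+ and 3 and 1 of 9 in CD157-CD200+ cells. Rgcc and Tcf15 were called higher in all 3 of these, and Meox2, the partner of Tcf15 in heart capillaries, rose by 2.49-fold or more in CD157+CD200+ over CD157-CD200- cells (limma, adjusted p = 0.0076). Meox2 was dim, well above background on 1 CD157-CD200+ and 0 CD157-CD200- arrays, and it entered the test only through CD157+CD200+ cells. Rgcc, Tcf15 and Meox2 were picked after their values were seen.

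Lymphatic markers, of which Lyve1 and Flt4 are also sinusoidal markers, were lower for 5 of 6, 3 of 4 and 2 of 4 in the same comparisons, with sums of 2.819 to 3.489 in EC-SP and both CD200-positive subsets, 22.32 to 26.22 in EC-MP and 39.17 to 55.03 in CD157-CD200- cells. Leukocyte and platelet markers were lower for 2 of 7, 1 and 1, with sums of 4.448 to 7.314 over all groups. General endothelial markers gave 2 higher and 2 lower of 12, then 1 and 2, and 1 and 2.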
